A study of Mus musculus with 18 samples.

Results

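ATF4 and the genes of the amino acid response are described here as 36 genes, chosen by name: 6 transcription factor genes, 4 feedback and effector genes, 5 serine and one-carbon genes, 4 further amino acid synthesis genes, 2 amino acid transporter subunits, 2 genes of a secreted protein and a lipoprotein receptor, 12 cytosolic tRNA synthetases and 1 tRNA exporter. They were chosen with earlier results of these data known, so their shares beside all genes describe the list and do not test it. They are 36 of the 49845 gene names measured, and all 36 lay above the filter on low values that left 16681 genes to test. The cells were IMCD3, immortalised mouse cells of the kidney's inner medullary collecting duct, with the strain background given as Tg(SV40E)bri/7 for every group and passage 10 to 15. The 6 groups were wild-type cells, an Ift140 knockout and a Dync2h1 knockout, each kept static or under fluid shear of about 0.7 dyne/cm2 for 3 h in chamber slides, with 3 libraries of total RNA per group and 18 in all. The comparisons ask how these genes answered flow in ciliated cells and in lines that lack a cilium transport gene, and how the lines differed at rest. The labels do not say how many clones stand for each knockout, nor whether replicates were separate cultures, so p-values measure only the spread between these samples.

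When amino acids run short, when unfolded proteins load the endoplasmic reticulum, or under heme lack or viral RNA, separate kinases phosphorylate the translation factor eIF2. General translation then slows while the Atf4 message is translated more, and ATF4 protein, paired with C/EBP family partners, switches on genes that import and make amino acids, charge tRNAs and export them from the nucleus. Trib3 and Ppp1r15a feed back on the same route, the latter by directing a phosphatase to eIF2. The data are RNA levels, so neither ATF4 protein nor eIF2 phosphorylation is seen in them.

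Promoter sequence shows which genes carry the short element that ATF4 and C/EBP dimers are known to bind. RefSeq windows of 300 bases (250 before and 50 after a start, GRCm38.p6) were matched for 28 of the 36 genes and searched on both strands for TGATGNAA, the core of the composite C/EBP-ATF element, and for TGACGTCA, the cyclic AMP response element. No 8 letters can match both. TGATGNAA lay in the windows of 11 of the 28 genes (39.3%) against 1219 of 27025 genes of the whole table (4.5%), and TGACGTCA in 1 of 28 (3.6%, Ppp1r15a at -12 to -5 from the start) against 549 (2.0%). A match describes letters only. For genes not matched (Eif4ebp1, Cth, Slc7a5, Cars, Lars, Mars, Nars and Wars) no sequence is given. The stretches before the start of 8 of the 11 genes are printed here because they hold the element beside the members with the largest flow responses (Chac1), one that passed in no comparison (Pycr1) and the one that fell (Vldlr). Each runs 5′ to 3′ on the gene's strand, with the matched element in capitals, read as TTGCATCA or TTTCATCA where the match is on the opposite strand.
Chac1: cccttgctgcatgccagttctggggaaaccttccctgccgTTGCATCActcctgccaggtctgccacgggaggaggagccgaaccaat
Nupr1: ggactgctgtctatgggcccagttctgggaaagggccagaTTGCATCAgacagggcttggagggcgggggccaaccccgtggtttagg
Aars: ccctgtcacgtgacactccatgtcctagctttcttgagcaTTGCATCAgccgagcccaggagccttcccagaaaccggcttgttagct
Tars: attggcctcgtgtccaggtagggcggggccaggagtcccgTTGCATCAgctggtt
Pycr1: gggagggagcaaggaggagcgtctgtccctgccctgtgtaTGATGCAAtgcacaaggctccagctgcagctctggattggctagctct
Asns: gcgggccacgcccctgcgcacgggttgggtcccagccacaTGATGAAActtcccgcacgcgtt
Gars: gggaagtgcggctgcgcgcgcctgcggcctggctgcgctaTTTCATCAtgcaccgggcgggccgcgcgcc
Vldlr: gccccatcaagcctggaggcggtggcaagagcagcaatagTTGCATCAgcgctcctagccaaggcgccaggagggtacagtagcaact
They lie at chr2:119351009-119351096 (plus strand) for Chac1, chr7:126625533-126625620 (minus strand) for Nupr1, chr8:111033690-111033777 (plus strand) for Aars and chr15:11399659-11399713 (minus strand) for Tars. Those of the others are chr11:120643804-120643891 (minus strand) for Pycr1, chr6:7693210-7693272 (minus strand) for Asns, chr6:55037931-55038000 (plus strand) for Gars, and chr19:27216780-27216867 (plus strand), before an alternative start, for Vldlr. In Trib3, Yars and Iars the match lies just after the start, first base 15, 4 and 8, and Aars holds one there too, first base 10.

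Values below are TPM, a level per transcript length that the authors deposited and that was rescaled between libraries (scaled TPM). Changes are log2 differences of scaled TPM + 1 from limma fitted over all 18 libraries, with their SE, and a gene passed at a Benjamini-Hochberg adjusted p under 0.05 over the 16681 genes. The added 1 makes changes of genes near 0 TPM come out small. TPM does not keep sequencing depth, so its effect on precision is unknown. An exact permutation test of 3 against 3 libraries cannot go below 0.1, so smaller p-values rest on the model. In bulk RNA, fewer cells that express a gene and less RNA of it per cell cannot be told apart.

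As a check of the labels, Ift140 held 16.4, 19.3 and 18.8 scaled TPM in static wild-type libraries, against 6.25, 6.36 and 7.37 in static Ift140 knockout libraries. Under flow it stood at 7.60, 8.62 and 14.4 in the Ift140 knockout, so that replicate 3 lay near the wild-type flow values of 16.3, 15.2 and 18.8. That library also had the largest scaling factor, 1.195 in a range from 0.884. For each comparison that uses it, the count of all chosen genes that passed is therefore also given without it. Counts by overlap of libraries, by role, across genotypes and for further gene lists are given only with it. Dync2h1 held 40.1, 45.1 and 33.9 in static wild type, against 15.2, 9.67 and 15.7 in the Dync2h1 knockout without flow. Of 14 collecting duct and renal epithelium markers, 5 (Aqp2, Aqp3, Avpr2, Scnn1a and Gata3) stayed under 1 TPM in every library, while Cdh16, Krt8, Krt18, Pax8 and Epcam were well expressed. Markers of endothelium (4 of 4), fibroblasts (3 of 4) and leukocytes (2 of 4) were under 1 TPM everywhere. The summed proximal tubule markers (Slc34a1 at 0, Lrp2, Cubn and Slc5a2) ranged from 429.7 to 438 TPM in static wild type, 80.5 to 88.3 in the static Ift140 knockout and 9.61 to 12.7 in the static Dync2h1 knockout. Over all libraries Cubn ran from 2.27 to 426 TPM and Lrp2 from 2.71 to 104, while Slc5a2 reached at most 4.34. This sum therefore follows mainly Cubn and Lrp2. The summed renal epithelium markers ranged from 2400 to 2547 TPM in static and 3515 to 3573 in flow wild-type libraries, 3090 to 3390 and 3352 to 4315 in the Ift140 knockout, and 3122 to 3250 and 4172 to 4337 in the Dync2h1 knockout. The part of either sum in the results below was not tested.

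Flow raised most of these genes in every genotype. In wild-type cells 24 of the 36 rose, 1 fell and 11 did not pass, where 10.2% of all genes tested rose and 9.35% fell. The Ift140 knockout gave 23 up, 1 down and 12 not passed (8.18% and 8.13% of all genes), and the Dync2h1 knockout 26 up, 1 down and 9 not passed (10.3% and 7.76%). The median change of the 36 was 0.42, 0.46 and 0.49 in the 3 genotypes, beside -0.00, -0.01 and 0.02 for all genes. These 3 comparisons share no libraries: 21 genes rose in all 3, 4 in 2 of them and 2 in 1, Vldlr fell in all 3, and 8 passed in none. The like joint shares of all genes were not counted, so these joint counts describe the 36 only and do not set them apart. Flow and static libraries did not overlap for 30 of the 36 in wild type (28 higher, 2 lower), where 20% of all genes were higher and 19.6% lower without overlap. The like counts were 26 and 1 in the Ift140 knockout (12.3% and 13.8% of all genes) and 30 and 1 in the Dync2h1 knockout (23.2% and 17.8%). Without replicate 3 of the Ift140 knockout flow group, 26 rose and 1 fell in that line, all 24 calls were kept and no value of theirs moved by over 1.5 times. Fitted on these 2 groups alone, 12 passed there in place of 24. In the Dync2h1 knockout 21 rose and 1 fell on the deposited scaling, on which 32.0% of all genes that passed were higher, against 57.1% here, and the median of all genes moved by -0.10. The calls of Phgdh, Shmt2, Aldh18a1, Yars and Xpot were the ones lost there.

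**Figure D1:**
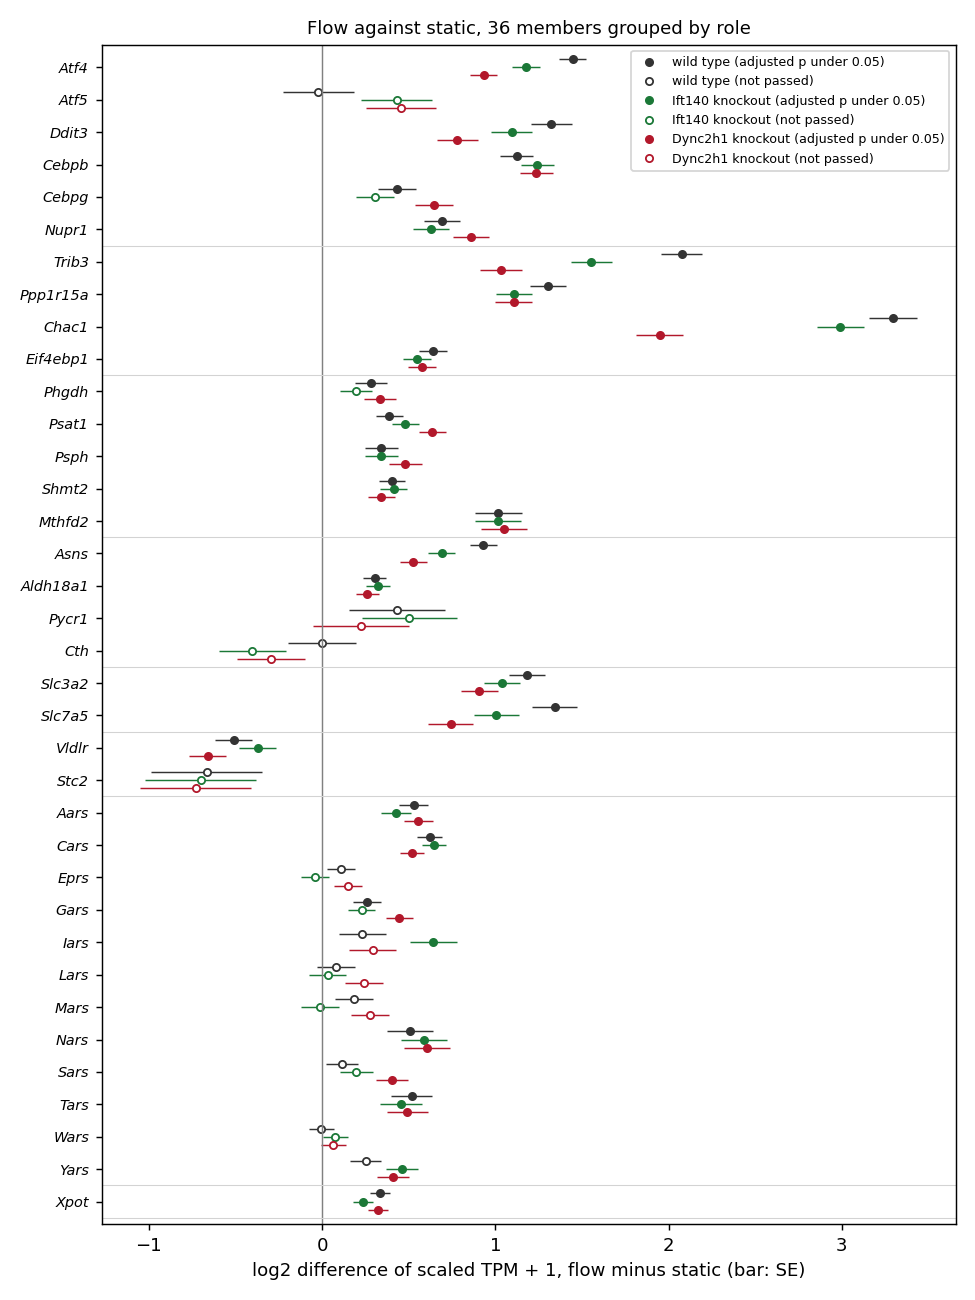
Flow minus static for each of the 36 genes, in log2 units of scaled TPM + 1 with SE bars, ordered by role from transcription factors at the top to Xpot at the bottom. Filled points passed (adjusted p under 0.05 by limma), open points did not. Most filled points lie to the right of 0 in all 3 genotypes, Chac1 lies farthest right at 3.29, 2.99 and 1.95, and Vldlr is the one gene with filled points to the left.

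The transcription factor genes came first, and 5 of 6 rose in wild-type cells, where 10.2% of all genes rose. Atf4 itself (GRCm38, chromosome 15, 80255184 to 80257541, the regulator after which the response is named) stood at 132, 141 and 138 scaled TPM in static and 354, 384 and 388 in flow wild-type libraries. The Ift140 knockout held 169, 163 and 171 in static and 412, 403 and 331 in flow, and the Dync2h1 knockout 247, 253 and 251 in static and 505, 455 and 479 in flow. Flow and static values were far apart in each genotype, and the static Dync2h1 knockout lay between static and flow wild type without touching either. The flow change was 1.45 (SE 0.08, adjusted p = 4.53e-09) in wild type, 1.18 (SE 0.08, adjusted p = 6.38e-08) in the Ift140 knockout and 0.93 (SE 0.08, adjusted p = 7.5e-07) in the Dync2h1 knockout by limma. Without Ift140 knockout flow replicate 3, the lowest of its group, the second of these was 1.28. In TPM the mean gain was 238, 214 and 229 in the same order.

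Ddit3 (chromosome 10, 127290774 to 127296288), which encodes CHOP, a stress-induced factor tied to cell death, stood at 17.96, 19.1 and 18.7 in static and 52.9, 47.1 and 44.3 in flow wild-type libraries. It read 23.9, 20.0 and 19.5 against 50.5, 51.8 and 37.3 in the Ift140 knockout and 27.2, 23.7 and 28.4 against 46.5, 45.1 and 46.3 in the Dync2h1 knockout. No flow library overlapped a static one, and the flow levels of the 3 genotypes overlapped each other. Its changes were 1.32 (SE 0.12), 1.09 (SE 0.12) and 0.78 (SE 0.12), with adjusted p of 1.15e-06, 1.18e-05 and 0.000241. Exons of Ddit3 and Mars, which lie on opposite strands, share 68 bases, and whether the counting used strand is not given in the sources used here.

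Cebpb (chromosome 2, 167688915 to 167690418), a C/EBP partner of ATF4, stood at 35.8, 37.1 and 32.7 in static and 75.4, 81.9 and 76.2 in flow wild-type libraries. It read 40.2, 46.8 and 38.5 against 106, 109 and 87.1 in the Ift140 knockout, and 49.5, 48.2 and 43.3 against 111, 108 and 117 in the Dync2h1 knockout. Here the flow levels of both knockouts lay above those of wild type. The change was 1.12 (SE 0.09), 1.24 (SE 0.09) and 1.24 (SE 0.09), with adjusted p = 6.1e-07, 3.26e-07 and 2.6e-07 by limma. Its single exon shares 312 bases with Tmem189 on the opposite strand.

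Nupr1 and Cebpg changed less in wild type than these 3 factors. Nupr1, a small stress-induced chromatin protein gene whose promoter element is printed above, rose by 0.69 (SE 0.10), 0.63 (SE 0.10) and 0.86 (SE 0.10), from 58.1 ± 6.51 to 94.2 ± 5.74 scaled TPM (mean ± SD, n = 3) in wild type. Cebpg, a further dimer partner of ATF4, rose by 0.43 (SE 0.11) in wild type and 0.65 (SE 0.11) in the Dync2h1 knockout, and its value of 0.31 (SE 0.11) in the Ift140 knockout did not pass, adjusted p = 0.0688 by limma. The wild-type call of Cebpg was lost without static replicate 1. Atf5, a relative of Atf4, passed in none of the 9 comparisons made. Its libraries ran from 9.54 to 16.4 in flow and 11.9 to 15.8 in static wild type, and overlapped.

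The feedback and effector genes held the largest responses, and 4 of 4 rose in each genotype (10.2%, 8.18% and 10.3% of all genes). Chac1 (chromosome 2, 119351229 to 119354381), which encodes an enzyme that breaks down glutathione, stood at 3.99, 4.92 and 4.40 in static and 55.4, 54.4 and 47.3 in flow wild-type libraries. The Ift140 knockout held 4.33, 6.80 and 4.57 against 52.1, 47.6 and 44.1, and the Dync2h1 knockout 12.8, 14.9 and 11.6 against 57.6, 49.98 and 52.0. Flow levels overlapped between the 3 genotypes, from 44.1 to 57.6, while the static level of the Dync2h1 knockout lay above both others. The change was 3.29 (SE 0.14, adjusted p = 1.34e-10), 2.99 (SE 0.14, adjusted p = 8.97e-10) and 1.95 (SE 0.14, adjusted p = 1.06e-07) by limma, and the ratio of mean levels 11.8, 9.16 and 4.07.

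Trib3 (chromosome 2, 152337422 to 152344032), a pseudokinase gene that damps ATF4 and CHOP activity, stood at 6.47, 7.57 and 5.11 in static and 29.7, 31.6 and 28.2 in flow wild-type libraries. It read 9.78, 10.3 and 10.4 against 36.4, 32.0 and 27.5 in the Ift140 knockout, and 27.1, 30.8 and 26.4 against 62.5, 56.9 and 56.1 in the Dync2h1 knockout. The static Dync2h1 libraries thus covered much the same levels as the flow libraries of wild type. The change was 2.08 (SE 0.12, adjusted p = 9.68e-09), 1.55 (SE 0.12, adjusted p = 3.97e-07) and 1.03 (SE 0.12, adjusted p = 2.1e-05).

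Ppp1r15a (chromosome 7, 45522916 to 45526268), the phosphatase subunit that reverses eIF2 phosphorylation, stood at 8.98, 9.30 and 9.74 in static and 25.4, 23.9 and 24.2 in flow wild-type libraries. It read 11.5, 11.3 and 10.1 against 29.7, 22.8 and 22.6 in the Ift140 knockout, and 15.3, 16.1 and 17.7 against 39.8, 34.5 and 34.9 in the Dync2h1 knockout. Groups did not overlap between flow and static in any genotype, and the change was 1.30 (SE 0.10), 1.11 (SE 0.10) and 1.11 (SE 0.10). Eif4ebp1, which encodes an inhibitor of cap-dependent translation, rose by 0.64 (SE 0.08), 0.55 (SE 0.08) and 0.57 (SE 0.08), from 107 ± 5.70 to 168 ± 12.3 (n = 3) in wild type.

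**Figure D2:**
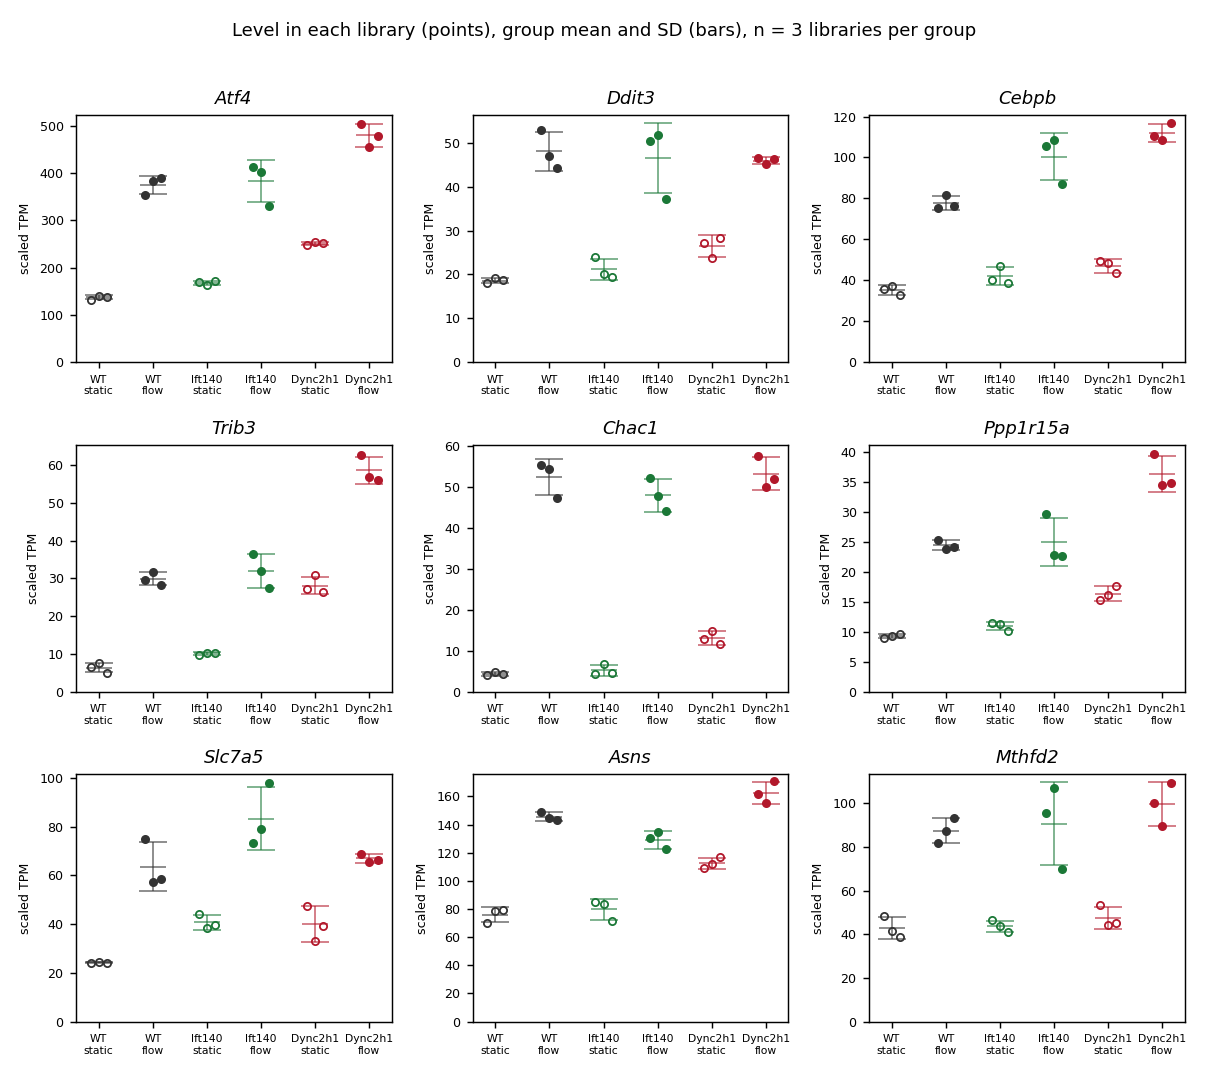
Scaled TPM in each library (points), with group mean and SD (bars, n = 3), for 9 of the genes, with axes that start at 0 and knockouts named by gene. Open points are static and filled points flow. Chac1 reached 44.1 to 57.6 under flow in all 3 genotypes, while static Trib3 and static Atf4 were higher in the Dync2h1 knockout (26.4 to 30.8 and 247 to 253) than in wild type (5.11 to 7.57 and 132 to 141).

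Genes of serine synthesis and one-carbon metabolism, which supply serine, glycine and folate-bound carbon, rose less, except Mthfd2. All 5 rose in wild type and in the Dync2h1 knockout (10.2% and 10.3% of all genes) and 4 in the Ift140 knockout (8.18%). Mthfd2 (chromosome 6, 83305691 to 83325908), a mitochondrial folate enzyme gene, stood at 48.3, 41.4 and 38.8 in static and 81.8, 87.6 and 93.4 in flow wild-type libraries. It read 46.4, 43.7 and 41.2 against 95.6, 107 and 69.9 in the Ift140 knockout, and 53.3, 44.4 and 45.1 against 100.3, 89.5 and 109 in the Dync2h1 knockout. Flow levels lay above static levels in every genotype and the genotypes overlapped in each condition. The change was 1.02 (SE 0.13), 1.02 (SE 0.13) and 1.05 (SE 0.13), with adjusted p = 6.44e-05, 8.96e-05 and 5.11e-05 by limma.

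Psat1 (chromosome 19, 15904678 to 15947337), the aminotransferase of serine synthesis, stood at 115, 113 and 114 in static and 150, 146 and 152 in flow wild-type libraries. It read 140, 139 and 152 against 211, 217 and 175 in the Ift140 knockout, and 191, 189 and 210 against 303, 293 and 324 in the Dync2h1 knockout. Each step from wild type to Dync2h1 knockout was visible in both conditions, and the static Dync2h1 libraries already exceeded the flow wild-type libraries. Flow changed it by 0.39 (SE 0.08), 0.48 (SE 0.08) and 0.64 (SE 0.08). Psph, the phosphatase of the last serine step, rose by 0.34 (SE 0.10), 0.34 (SE 0.10) and 0.48 (SE 0.10), and Shmt2, which passes carbon from serine to folate in mitochondria, by 0.40 (SE 0.08), 0.41 (SE 0.08) and 0.34 (SE 0.08). Exons of Psph share 452 bases with Cct6a on the opposite strand, and whether the counting used strand is not known. Phgdh, the first enzyme of the route and its most abundant message here (305 ± 3.13 in static wild type, n = 3), changed by 0.28 (SE 0.09, adjusted p = 0.0443), 0.20 (SE 0.09, adjusted p = 0.171) and 0.33 (SE 0.09, adjusted p = 0.0202). The wild-type call of Phgdh was lost without any single static library or without flow replicate 2 or 3, and its Dync2h1 knockout call without static replicate 1 or flow replicate 1 or 3. For Psph the wild-type call was lost without static replicate 2 or flow replicate 3, and the Ift140 knockout call without static replicate 2 or 3 or flow replicate 1 or 2.

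Among further amino acid synthesis genes, Asns and Aldh18a1 rose in all 3 genotypes and Pycr1 and Cth in none. Asns, asparagine synthetase, a long-known ATF4 target whose element is printed above, went from 76.0 ± 5.40 to 146 ± 3.12 scaled TPM (n = 3) in wild type, a change of 0.93 (SE 0.08, adjusted p = 4.93e-07 by limma). In the Ift140 knockout the change was 0.69 (SE 0.08) and in the Dync2h1 knockout 0.53 (SE 0.08). Aldh18a1, which begins proline synthesis, rose by 0.30 (SE 0.07), 0.32 (SE 0.07) and 0.26 (SE 0.07). Pycr1, which ends that route, held 1.64 to 8.42 TPM over the 18 libraries, and its values of 0.43, 0.50 and 0.23 (SE 0.28) did not pass. Cth, which makes cysteine from cystathionine, lay at -0.00, -0.40 and -0.30 (SE 0.20), with 95% intervals of -0.42 to 0.41, -0.82 to 0.01 and -0.71 to 0.12.

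Both subunits of the large neutral amino acid transporter rose. Slc3a2 (chromosome 19, 8706882 to 8723369), the heavy chain, stood at 52.8, 60.6 and 56.4 in static and 155, 121 and 117 in flow wild-type libraries. It read 73.3, 61.9 and 64.6 against 133, 136 and 144 in the Ift140 knockout, and 88.5, 80.4 and 81.7 against 170, 141 and 163 in the Dync2h1 knockout. Flow and static libraries stood well apart, and the change was 1.18 (SE 0.10), 1.04 (SE 0.10) and 0.91 (SE 0.10). Slc7a5 (chromosome 8, 121881150 to 121907694), the light chain that carries the amino acid, stood at 24.1, 24.5 and 24.2 in static and 75.0, 57.1 and 58.6 in flow wild-type libraries. It read 44.1, 38.3 and 39.8 against 73.1, 79.0 and 97.7 in the Ift140 knockout, and 47.6, 33.2 and 39.3 against 68.9, 65.5 and 66.3 in the Dync2h1 knockout. Static levels of both knockouts lay above those of wild type, and the flow range of wild type overlapped those of both knockouts. The change was 1.34 (SE 0.13), 1.01 (SE 0.13) and 0.74 (SE 0.13), adjusted p = 3.12e-06, 7.93e-05 and 0.000896.

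Vldlr, a lipoprotein receptor gene, was the one member that fell. It went from 177 ± 11.5 to 124 ± 15.3 scaled TPM in wild type, 134 ± 1.23 to 104 ± 17.4 in the Ift140 knockout and 138 ± 5.66 to 87.1 ± 1.43 in the Dync2h1 knockout (mean ± SD, n = 3). The changes were -0.51 (SE 0.11), -0.37 (SE 0.11) and -0.66 (SE 0.11), adjusted p = 0.00318, 0.0267 and 0.000472 by limma, and the Ift140 knockout call was lost without any single static library or without flow replicate 1 of that line. Its second promoter window holds the same letters as those of Chac1, Nupr1, Aars and Tars, TTGCATCA, whose genes rose. Windows of Iars, and on the other strand of Pycr1 and Yars, hold these letters too. Those genes did not pass for flow in wild type.

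Of the 12 cytosolic tRNA synthetases, which charge tRNAs with their amino acids, 5 rose in wild type, 6 in the Ift140 knockout and 7 in the Dync2h1 knockout, and 0 fell. Of all genes tested 10.2%, 8.18% and 10.3% rose in the same order, and 9.35%, 8.13% and 7.76% fell. Their median change was 0.24, 0.33 and 0.41. Cars (cysteine), Aars (alanine), Nars (asparagine) and Tars (threonine) rose in every genotype, Cars by 0.62, 0.65 and 0.52 (SE 0.07) and Aars by 0.53, 0.43 and 0.55 (SE 0.08). Gars (glycine) rose in wild type and the Dync2h1 knockout, Yars (tyrosine) in both knockouts, Iars (isoleucine) in the Ift140 knockout alone by this threshold and Sars (serine) in the Dync2h1 knockout. The difference of each response from that of wild type was tested, and 0 of the 12 passed in either knockout. Of all genes 0.204% passed for the Ift140 knockout and 0.42% for the Dync2h1 knockout. A count of 0 is near these shares and gives no result about the synthetases. The wild-type calls were lost for Gars without any single library and for Nars without flow replicate 1, and the Ift140 knockout call of Tars without static replicate 3 or flow replicate 2. Eprs, Lars, Mars and Wars passed in none, with values from -0.04 to 0.28. The summed level of the 12 was 2144 ± 18.3 scaled TPM in static and 2552 ± 55.6 in flow wild type (n = 3). Exons of Aars share 1326 bases with Exosc6 on the same strand, so part of its level may be split between them. Those of Cars share 211 bases with Gm15580 on the opposite strand. Xpot, the exporter of tRNAs from the nucleus, rose by 0.33, 0.23 and 0.32 (SE 0.06). Both knockout calls of Xpot were lost on the deposited scaling and with quantile normalisation. That of the Ift140 knockout was also lost when its 2 groups were fitted alone.

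Differences between the responses were tested directly. Against wild type, the Ift140 knockout response differed for 0 of 36 genes by limma, where 0.204% of all genes passed (0.0599% larger and 0.144% smaller), with 4 at an unadjusted p under 0.05 and a lowest adjusted p of 0.393. It was 0 of 36 too without any single library, knockout flow replicate 3 included. The share of all genes rests on 34 genes, a number that moved with single libraries: 69 passed without Ift140 knockout flow replicate 3 and 12 without static replicate 1 of that line. It was 15 to 20 without any single wild-type library, without knockout static replicate 3 or without knockout flow replicate 1. The Dync2h1 knockout response differed for 2 of 36, both smaller (0.276% of all genes passed as smaller and 0.144% as larger), with 8 at an unadjusted p under 0.05. Without any single library it was 2 again, while the 70 genes behind these shares became 37 to 46 without static replicate 1 or 2 or flow replicate 2 of wild type, any static library of the knockout, or its flow replicate 1 or 2. Of all genes that passed in this test 34.3% were larger, or 20.6% on the deposited scaling. The 2 were Chac1, at -1.35 (SE 0.19, 95% interval -1.76 to -0.93, adjusted p = 0.00336), and Trib3, at -1.04 (SE 0.17, interval -1.40 to -0.68, adjusted p = 0.0101). Both are differences on the log2 scale. In scaled TPM, flow added a mean of 47.9 to Chac1 in wild type and 40.1 in the Dync2h1 knockout, and it added 23.5 and 30.4 to Trib3. For Trib3 the larger gain in TPM was therefore in the line with the smaller log2 change. Atf4 lay at -0.51 (interval -0.75 to -0.28), which did not pass at adjusted p = 0.0611, and Ddit3, Slc7a5 and Asns at -0.54, -0.60 and -0.41, with adjusted p = 0.258, 0.261 and 0.168. For Mthfd2 the difference was 0.03 with an interval from -0.37 to 0.44, which leaves changes of either sign possible.

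At rest, the Dync2h1 knockout line carried most of these genes at a higher level than wild type. In static culture 27 of 36 were higher, 2 lower and 7 not passed, where 13.8% of all genes were higher and 12.7% lower. Under flow 24 were higher, 2 lower and 10 not passed (16% and 13.3% of all genes). The 2 comparisons share no libraries but set the same 2 lines against each other, and 22 genes were higher in both. The share of all genes higher in both was not counted, so this number describes the 36 only. The median difference of the 36 was 0.51 in static and 0.48 under flow, beside 0.01 and 0.03 for all genes. Static libraries of the 2 lines did not overlap for 29 genes in the higher and 4 in the lower direction (24.8% and 22.7% of all genes), and flow libraries for 25 and 2 (26.3% and 20.5%). The static comparisons of both knockouts and the flow comparison of wild type use the same static wild-type libraries, so their values below stand side by side only. The proximal tubule marker sum, which follows mainly Cubn and Lrp2 as given above, was lowest in this line. Its part in these differences was not tested. On the deposited scaling 19 genes were higher and 2 lower under flow, with 34.3% of all genes that passed higher, against 54.7% here, and a shift of the median of all genes by -0.13.

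**Figure D3:**
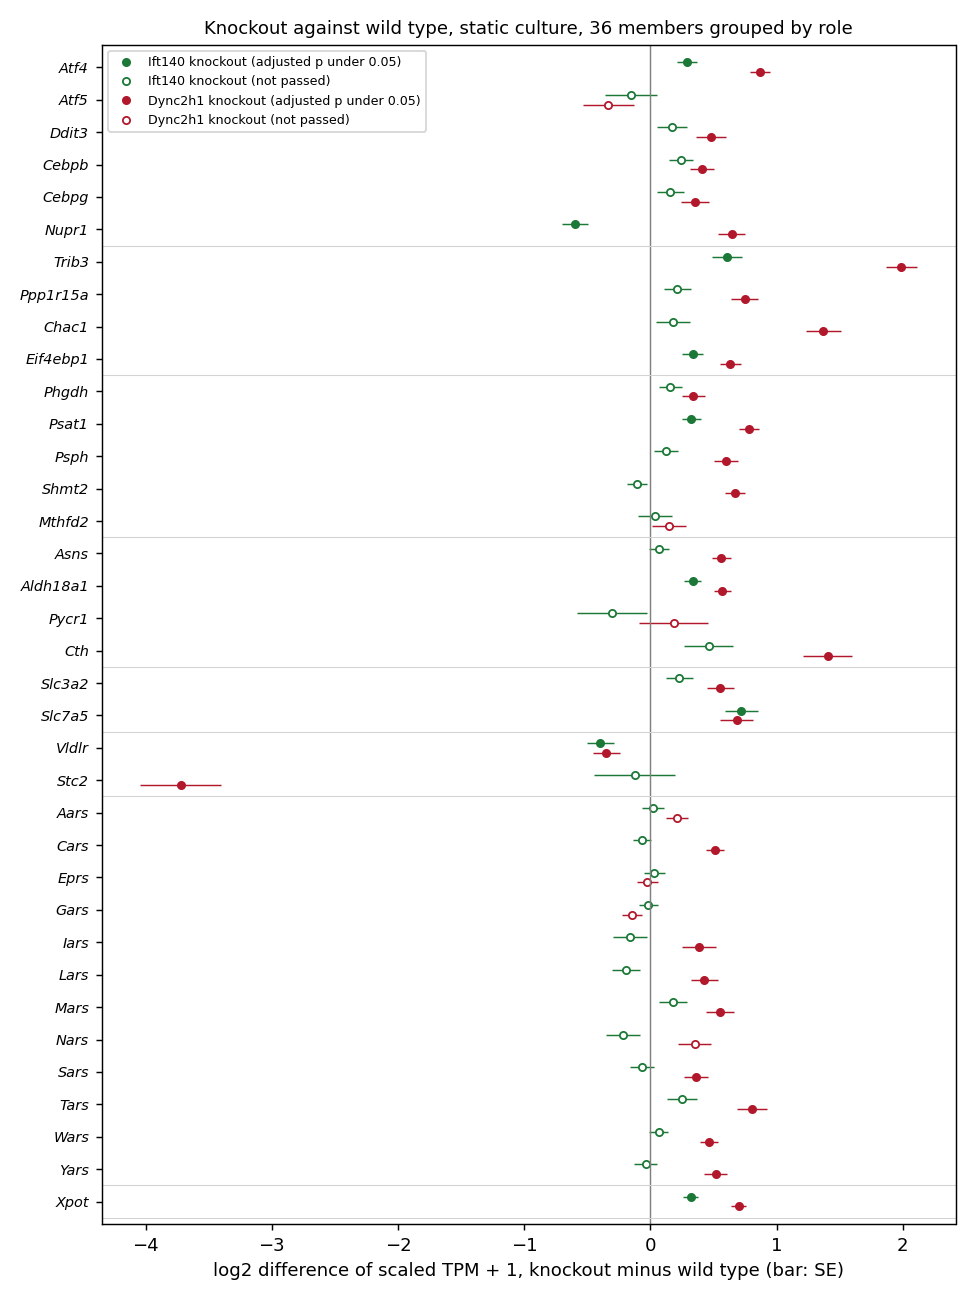
Knockout minus wild type in static culture for each of the 36 genes, in log2 units of scaled TPM + 1 with SE bars, in the same order by role; filled points passed (adjusted p under 0.05 by limma). Most points of the Dync2h1 knockout lie to the right of 0, with Trib3 at 1.99, Cth at 1.40 and Chac1 at 1.37, and Stc2 lies alone at the left at -3.72.

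Trib3, Cth and Chac1 led the static difference of the Dync2h1 knockout, at 1.99 (SE 0.12, adjusted p = 9.21e-09), 1.40 (SE 0.20, adjusted p = 6.71e-05) and 1.37 (SE 0.14, adjusted p = 2.62e-06). Under flow Trib3 stayed higher, at 0.95 (SE 0.12), while Chac1 lay at 0.02 (95% interval -0.27 to 0.32, adjusted p = 0.925). Atf4 was higher by 0.87 (SE 0.08, adjusted p = 9.17e-07) in static and 0.35 (SE 0.08, adjusted p = 0.00306) in flow culture. The flow call was lost with the deposited scaling and with quantile normalisation, at an adjusted p of up to 0.290. Ddit3 was higher in static culture, by 0.48 (SE 0.12), and lay at -0.06 (interval -0.31 to 0.19) under flow.

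Cth (chromosome 3, 157894248 to 157925077) passed between the Dync2h1 knockout and wild type but not for flow. It stood at 5.33, 3.25 and 3.30 in static and 4.06, 3.73 and 3.83 in flow wild-type libraries, 7.11, 5.03 and 5.17 against 5.15, 4.59 and 2.79 in the Ift140 knockout, and 10.6, 12.4 and 12.8 against 11.3, 9.13 and 8.34 in the Dync2h1 knockout. Every Dync2h1 knockout library lay above every library of the other lines. Under flow the difference from wild type was 1.11 (SE 0.20, adjusted p = 0.000522 by limma).

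Stc2 (chromosome 11, 31357307 to 31370074), a secreted glycoprotein gene known to be induced by this response, went the other way. It stood at 29.2, 29.5 and 34.0 in static and 17.6, 18.1 and 21.8 in flow wild-type libraries, and at 29.0, 25.9 and 29.7 against 26.9, 13.1 and 13.7 in the Ift140 knockout. In the Dync2h1 knockout it read 0.770, 0.747 and 3.56 in static and 0.317, 0.965 and 0.199 in flow libraries. The Dync2h1 values lay far below all others, with static replicate 3 the highest of them. The difference from wild type was -3.72 (SE 0.32, adjusted p = 5.08e-07) in static and -3.78 (SE 0.32, adjusted p = 4.13e-07) in flow culture by limma. For flow, values of -0.66, -0.70 and -0.73 (SE 0.32) did not pass.

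Of the 5 serine and one-carbon genes, 4 were higher in the Dync2h1 knockout in each condition, and of the 4 further synthesis genes 3 in static and 2 in flow culture. Of all genes tested 13.8% were higher in static and 16% in flow culture, shares that also stand beside the synthetases below. Psat1 was higher by 0.78 (SE 0.08) in static and 1.03 (SE 0.08, adjusted p = 1.39e-07) in flow culture, Shmt2 by 0.67 and 0.61 (SE 0.08) and Psph by 0.60 and 0.74 (SE 0.10). Mthfd2, with 0.15 and 0.18 (SE 0.13), passed in neither. The call of Phgdh was lost in static culture without knockout replicate 2, and in flow culture on the deposited scaling and with quantile normalisation. Asns was higher in static culture only by this threshold, 0.56 against 0.16 (SE 0.08). Of the synthetases 8 of 12 were higher in static and 10 of 12 in flow culture, led by Tars at 0.80 and 0.78 (SE 0.12). The flow call of Aars was lost without any single flow library of the 2 lines, on the deposited scaling, with quantile normalisation and with a replicate block. For Iars the static call was lost under these same 3 settings, without any single wild-type static library and without knockout static replicate 3. Its flow call was lost under both other scalings and without wild-type flow replicate 2 or 3 or knockout flow replicate 1 or 3. The flow call of Nars was lost with quantile normalisation and without wild-type flow replicate 2 or knockout flow replicate 3, that of Cars on the deposited scaling, and the static call of Sars with quantile normalisation. Wars, Lars and Mars, which did not pass for flow, were higher in this line by 0.47, 0.43 and 0.55 in static culture. Eprs and Gars passed in neither condition. Xpot was higher by 0.70 and 0.69 (SE 0.06).

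Fewer of the genes passed between the Ift140 knockout and wild type. In static culture 7 of 36 were higher, 2 lower and 27 not passed (8.11% and 8.66% of all genes, with 48.4% of those that passed higher, or 58.6% on the deposited scaling), and under flow 4 were higher, 1 lower and 31 not passed (6.13% and 8.02%). The flow share, 13.9% in either direction, was close to the 14.1% of all genes and gives no result about the set, and none of these flow calls was kept when the 2 groups were fitted alone. Without knockout flow replicate 3 these 5 were kept and 5 were higher and 1 lower. Libraries did not overlap for 13 higher and 5 lower genes in static culture (18.7% and 19.6% of all genes) and for 6 and 2 under flow (11.7% and 14.9%). In static culture Slc7a5 was higher by 0.72 (SE 0.13, adjusted p = 0.00135), Trib3 by 0.61 (SE 0.12, adjusted p = 0.00256) and Xpot by 0.32 (SE 0.06, adjusted p = 0.0014), with Eif4ebp1, Aldh18a1, Psat1 and Atf4 between 0.29 and 0.34. The lower genes were Nupr1 and Vldlr, the latter at -0.40 (SE 0.11, adjusted p = 0.0183), a call lost without static replicate 1 of either line. The Atf4 call, at adjusted p = 0.0184, was lost without wild-type static replicate 1 or without static replicate 1 or 3 of the knockout, and that of Eif4ebp1 without wild-type static replicate 1. Under flow Cebpb, Psat1, Aldh18a1 and Xpot were the higher genes, by 0.22 to 0.42. The call of Cebpb was lost without wild-type flow replicate 1 or 3 or knockout flow replicate 1 or 2, and that of Xpot without wild-type flow replicate 2 or 3 or knockout flow replicate 1, and on the deposited scaling. No synthetase passed in either condition.

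Nupr1 (chromosome 7, 126623249 to 126630861) split the 2 knockout lines. Its static libraries held 65.7, 54.3 and 54.5 scaled TPM in wild type, 36.8, 38.5 and 38.4 in the Ift140 knockout and 96.0, 92.6 and 84.7 in the Dync2h1 knockout. The 3 lines did not overlap. It was lower in the Ift140 knockout, at -0.60 (SE 0.10, adjusted p = 0.00102), and higher in the Dync2h1 knockout, at 0.64 (SE 0.10, adjusted p = 0.00027 by limma), and under flow the values were -0.66 and 0.81 (SE 0.10).

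Lists of other genes of the pathway were counted the same way, with no test of a list. They too were chosen with earlier results of these data known. Among 23 tested genes of a list of 24 further known ATF4 targets, 15 rose with flow in wild type and 1 fell (14 and 2 in each knockout), with a median of 0.51. Of all genes 10.2%, 8.18% and 10.3% rose in wild type, Ift140 and Dync2h1 knockout, and 9.35%, 8.13% and 7.76% fell. Gdf15, a stress-induced secreted factor, rose by 2.48 (SE 0.10), Atf3, a stress-induced transcription factor gene, by 2.49 (SE 0.12), Sqstm1, an autophagy receptor gene, by 1.05 (SE 0.07) and Slc1a4, a neutral amino acid transporter gene, by 1.38 (SE 0.10). Several of these also answer other stress pathways. In the static Dync2h1 knockout 12 of the 23 were higher and 2 lower, the latter Cbs at -2.93 (SE 0.12) and Jdp2 at -2.03 (SE 0.11), named after their values were seen. Of all genes 13.8% were higher and 12.7% lower there. Cbs makes cystathionine, the substrate of the Cth enzyme, and its mean was 59.1 scaled TPM in static wild type and 6.92 in the static Dync2h1 knockout, where that of Cth was 3.96 and 11.9.

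Genes of the route before ATF4 passed at a rate near or below that of all genes, so their counts give no result about the list. The share was 5.88% for the static Ift140 knockout against wild type (16.8% of all genes). For flow in the Dync2h1 knockout it was 11.8% (18.1%). The list held 17 genes, for the eIF2 kinases, their activators, eIF2 and eIF2B, with Ppp1r15b, the constitutive eIF2 phosphatase subunit, counted among them. With flow in wild type 2 rose and 1 fell (17.6%, against 19.5% of all genes). These were Ppp1r15b at 0.63 (SE 0.07), Eif2s2, an eIF2 subunit gene, at 0.48 (SE 0.15), and Eif2ak3, the kinase of the endoplasmic reticulum, at -0.45 (SE 0.11). In the static Dync2h1 knockout 1 was higher and 4 lower (29.4%, against 26.5%), with Eif2ak3 at -0.84 (SE 0.11) and Ppp1r15b at -0.53 (SE 0.07). RNA levels of kinases do not show their activity.

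Synthetases outside the 36 were counted next. Of the 8 other cytosolic synthetases 0 rose and 0 fell with flow in any genotype, with a median of -0.07 in wild type, and 0 passed in the static Dync2h1 knockout. Of all genes 19.5%, 16.3% and 18.1% passed for flow in wild type, Ift140 and Dync2h1 knockout, and 26.5% in the static Dync2h1 knockout. In a list of 8 genes, counts of 0 beside such shares give no result about the list. In the Ift140 knockout 1 of the 8 was higher and 1 lower than in wild type in static culture (25%, against 16.8% of all genes). Under flow 1 was higher and 0 lower (12.5%, against 14.1%). Under flow 3 of the 8 were higher in that line than in wild type (37.5%, where 16% of all genes were higher) and 0 lower. Of 17 mitochondrial synthetases 1 rose and 6 fell with flow in wild type, with a median of -0.24, where 10.2% of all genes rose and 9.35% fell. Cars2 lay at -0.67 (SE 0.13) and Aars2 at -0.51 (SE 0.12), and Mars2 rose by 0.44 (SE 0.11) from a mean of 0.951 to 1.65 scaled TPM.

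Genes of the ATF6 and XBP1 arms of the unfolded protein response were counted last, chaperones of the endoplasmic reticulum among them. Most were lower in the Dync2h1 knockout than in wild type. With flow in wild type 1 of 20 rose, Herpud1 at 0.95 (SE 0.10), and 4 fell, among them Creld2 at -0.51 (SE 0.11), Sdf2l1 at -0.49 (SE 0.11) and Pdia4 at -0.52 (SE 0.14). In the Ift140 knockout 1 rose with flow and 3 fell, and in the Dync2h1 knockout 1 rose and 0 fell. The shares that passed for flow were 25%, 20% and 5% in wild type, Ift140 and Dync2h1 knockout. Of all genes 19.5%, 16.3% and 18.1% passed. Between the Ift140 knockout and wild type 1 was higher and 2 lower in static culture, and 1 higher and 0 lower under flow. These were 15% and 5% of the list, against 16.8% and 14.1% of all genes. None of the shares named so far lay far above that of all genes, so these counts give no result about the list. In the Dync2h1 knockout 0 were higher and 12 lower than in wild type under flow (60% passed, against 29.3% of all genes). In static culture 0 were higher and 13 lower there (65% passed, against 26.5% of all genes), all 20 lay below 0 and the median was -0.59. Pdia4 lay at -1.25 (SE 0.14) there. Hspa5, the main chaperone of the compartment, named after its value was seen, went from a mean of 1499 to 986 scaled TPM, a difference of -0.60 (SE 0.11).

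**Figure D4:**
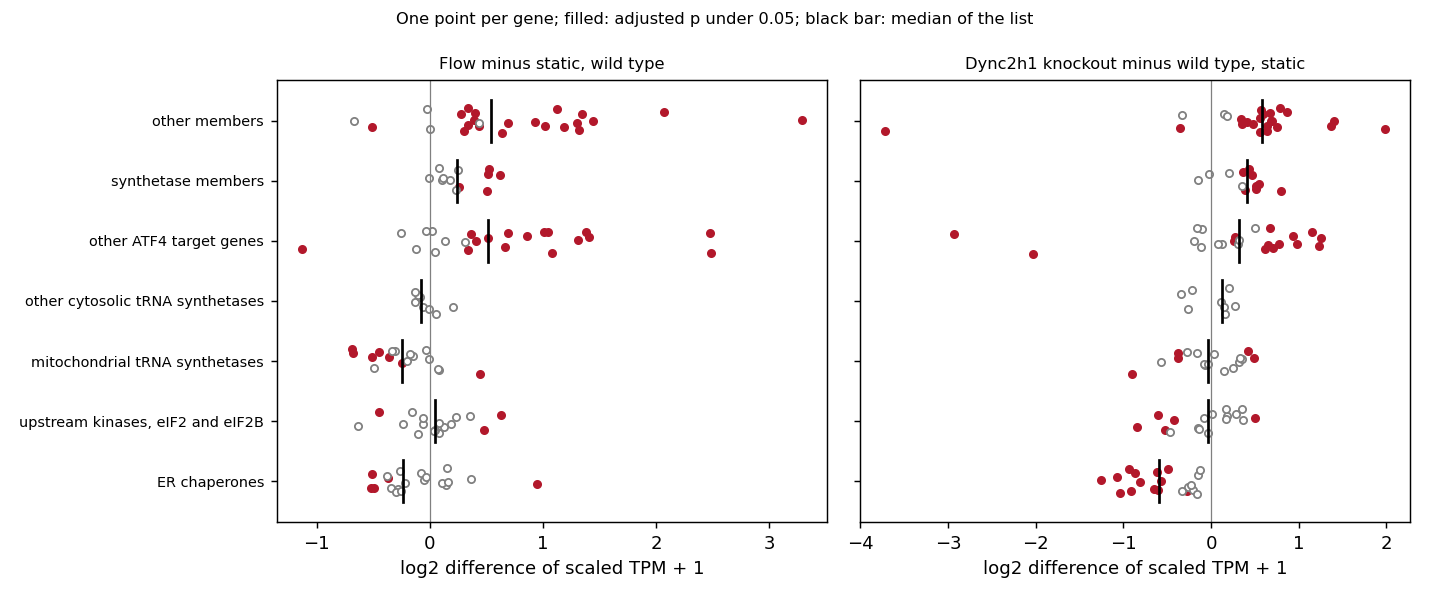
Log2 differences of scaled TPM + 1 for each gene of 7 lists, for flow in wild type (left) and for the static Dync2h1 knockout against wild type (right); filled points passed (adjusted p under 0.05 by limma) and black bars are list medians. The 24 genes outside the synthetases and the further ATF4 targets lie mostly right of 0 in both panels. The 8 other cytosolic synthetases lie around 0, and the 20 genes labelled ER chaperones all lie left of 0 on the right.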

How the data were processed

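RNA sequencing values of 18 libraries of IMCD3 cells (6 groups of 3) were used, 1 file per library with 49845 gene names. The deposited signal values are TPM that the authors made with RSEM 1.2.31 on Bowtie2 2.1.0 alignments after FastQC 0.11.5, with builds mm10 and GRCm38.p5, per the submitters' processing notes. The annotation release and strand settings are not given in the sources used here. TPM carries no depth. A leading total line was left out of each file. The labels name the same lane for every library.

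Libraries were rescaled by a trimmed mean of log ratios (30% of ratios and 5% of abundances trimmed, no weights). The test covered the 16681 genes that reached 1 TPM in 3 or more libraries. limma 3.58.1 (R 4.3.3) was fitted to log2(scaled TPM + 1) with 6 group means, 12 residual degrees of freedom, empirical Bayes moderation with a mean-variance trend and Benjamini-Hochberg adjustment over all genes. The fit was tested on simulated data. Values in every library are printed for Atf4, for members that passed with a log2 change of at least 1 in a flow or knockout comparison, and for members that passed in a difference of responses. Of each further list up to 4 genes that passed for flow in wild type are named, by smallest p, and other names are marked. One gene that this rule names is not reported here. The members and lists were chosen with earlier results of these data known. Gene coordinates are from GENCODE vM21 (GRCm38) and promoter windows from RefSeq (GRCm38.p6). Alternatives changed scaling, filter, pseudocount, variance model, threshold, library weights, the samples in the fit and the use of replicate numbers.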

Additional observations from a re-analysis of the deposited data

Results flagged for a closer look

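The flow response of 2 genes differed between the Dync2h1 knockout and wild type by a test of the difference itself. Chac1 differed by -1.35 (SE 0.19, adjusted p = 0.00336 by limma), with all 3 flow libraries above all 3 static libraries in both lines and values from -1.51 to -0.91 over the alternatives. Trib3 differed by -1.04 (SE 0.17, adjusted p = 0.0101), also without overlap of flow and static libraries in either line, with values from -1.17 to -0.68.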

How the results depend on the processing

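No call of a single member changed direction. Each of the 147 calls was checked under every alternative that applied to it. In 2437 of these checks the call held and in 221 it was lost. Of the lost ones 73 fell to the added 1.5-fold rule, with adjusted p still under 0.05, and 23 to the threshold of 0.01. Counts of members that passed moved by over 1.5 times in 14 cases. With a change of at least 1.5-fold also required, 13 passed for flow in wild type (25 without), 14 in the Ift140 knockout (24) and 14 in the Dync2h1 knockout (27). Against wild type that rule left 3 (of 9) for static Ift140 knockout, 1 (of 5) for flow Ift140 knockout, 14 (of 29) for static Dync2h1 knockout and 13 (of 26) for flow Dync2h1 knockout. When only the compared groups were fitted, 12 passed for flow in the Ift140 knockout and 0 for the Ift140 knockout against wild type under flow, where the spread within the flow group of that line is no longer shared with others. Over all genes that fit called 508 (2720) and 513 (2360) in these comparisons, 135 (70) in the Dync2h1 response difference and 5 (34) in that of Ift140. Weights per library gave 8 for the Ift140 knockout under flow and 5 for the Dync2h1 response difference, with 3819 and 270 genes in all, 4628 (3017) for flow in the Dync2h1 knockout and 99 in the Ift140 response difference. At adjusted p under 0.01 these 2 counts of members were 3 and 1, and quantile normalisation gave 4 for the Dync2h1 difference. The cause was not tested. On the deposited scaling 1722 higher and 1295 lower genes for flow in the Dync2h1 knockout became 830 and 1761, 2672 and 2212 for that line against wild type under flow became 1529 and 2923, 1353 and 1444 for static Ift140 knockout became 1522 and 1074, 24 and 46 in the Dync2h1 response difference became 13 and 50, and the 34 genes of the Ift140 difference became 19.

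Leaving out 1 library at a time gave 22 to 23 members for flow in wild type, 22 to 27 in the Ift140 knockout and 26 to 28 in the Dync2h1 knockout. It gave 7 to 9 and 26 to 29 for static Ift140 and Dync2h1 knockouts, 4 to 7 and 23 to 26 under flow, and 0 and 2 for the response differences. The replicate numbers showed no clear pairing of the libraries. Same-numbered libraries correlated at -0.04 to 0.10 in their deviations and 5 of 9 flow libraries lay closest to their own number. Deviations within groups of 3 cannot exclude a pairing. A replicate block gave 24, 24 and 27 members for flow, 9 and 28 in static and 5 and 25 in flow culture against wild type, and 0 and 2 for the differences, with 14 (34) and 41 (70) genes in all for the last 2. Depth is unknown for TPM and set no limit that could be computed.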
